A study of Bos taurus with 8 samples.

Results

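RDH12 (ENSBTAG00000012838) is an NADPH-dependent retinol dehydrogenase of the endoplasmic reticulum that reduces retinal to retinol. It was 1 gene of the 27607 whose reads were counted in 8 RNA-seq libraries of bovine blastocysts, and it was chosen by its measured difference between prepubertal and pubertal donors. That difference is therefore given as a description, without a test. All blastocysts were produced in vitro from oocytes that were collected by ovum pick-up from Polish Holstein-Friesian heifers, pooled within the donor group and fertilized with semen of the same bull. The prepubertal donors were younger animals with neither a dominant follicle nor a corpus luteum on the ovary. The pubertal donors, the control group, were older and had at least 1 of these structures. Donor age and pubertal status therefore differed together and cannot be told apart. Each library was made from total RNA of a pool of blastocysts with a stranded kit, and the labels give female as the sex. Because blastocysts of several oocyte donors were mixed in a pool, the spread between libraries is a spread between pools and not between heifers.

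The sample labels and the study's own lists of genes disagreed on 2 libraries. The study's lists placed samples 1, 2, 3 and 8 in the prepubertal group and samples 4, 5, 6 and 7 in the pubertal group, and this grouping is used here unless the labels are named. The labels placed sample 4 in the prepubertal group and sample 8 in the pubertal group. Which of the groupings is right could not be settled from the sources used here, so RDH12 is given under both.

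Vitamin A reaches cells as retinol, which is oxidized to retinal and then, by the ALDH1A enzymes, irreversibly to retinoic acid, the ligand of the retinoic acid receptors. RDH12 and its close relative RDH11 work in the opposite direction to the first of these steps and return retinal to retinol, which limits how much retinal is left for retinoic acid synthesis and removes a reactive aldehyde. RDH12 is best known from photoreceptors, where its loss causes an inherited retinal dystrophy, while retinoic acid is known as a regulator of differentiation in early embryos, and receptors and synthesizing enzymes of the pathway are expressed in cattle oocytes and blastocysts. In the cattle reference gene table (assembly ARS-UCD2.0), RDH12 lies between RDH11 and ZFYVE26. Reads that match RDH11 and RDH12 equally well could not be assigned to either, and the sources used here do not give the strand setting of the counting, which leaves the level of RDH12 uncertain to that extent.

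The reads counted on genes numbered 24828302, 24164077, 20112044 and 24831086 in samples 1, 2, 3 and 8 of the prepubertal group. They numbered 29549143, 27266940, 28098361 and 18510164 in samples 4, 5, 6 and 7 of the pubertal group. Samples 3 and 7 stood apart from the rest, having the fewest gene reads of all 8 libraries. Reads outside genes made up 54.1% of the uniquely mapped reads in sample 3 and 47.5% in sample 7, against 35.8% to 41.6% in the other libraries. Reads fell on 24203 genes in sample 3 and 24044 in sample 7, against 19503 to 20885 in the others. Each group held 1 of these libraries. The group difference and spread of RDH12, the fold changes of the other genes and the within-group likeness of GMDS and CYCS are also given without them. The label of the tissue could not be checked, since none of 19 marker genes fixed for blastocysts and for cumulus and granulosa cells was paired with an identifier in the sources used here (0 of 19).

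RDH12 was detected in every library, and all 4 prepubertal libraries held more of it than any pubertal library. Samples 1, 2, 3 and 8 of the prepubertal group had 322, 277, 289 and 394 RDH12 reads. Samples 4, 5, 6 and 7 of the pubertal group had 192, 127, 148 and 131. The read numbers themselves did not overlap between the groups, although the pubertal group had more gene reads in total. Scaled to counts per 1000000 gene counts (CPM), RDH12 stood at 13.0 CPM in sample 1, 11.5 CPM in sample 2, 14.4 CPM in sample 3 and 15.9 CPM in sample 8. The pubertal libraries had 6.50 CPM in sample 4, 4.66 CPM in sample 5, 5.27 CPM in sample 6 and 7.08 CPM in sample 7. The scaling widened the separation, with sample 2 the lowest of the prepubertal group and sample 7 the highest of the pubertal group. Between these 2 libraries lay a gap of 4.39 CPM.

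The counting precision of each level was taken from its number of reads. The 95% Poisson interval was 10.2 to 12.9 CPM in sample 2 and 5.92 to 8.40 CPM in sample 7, the neighbours across the gap. It was 14.3 to 17.5 CPM in sample 8, the highest library, and 3.88 to 5.54 CPM in sample 5, the lowest. The intervals cover counting error only and not the differences between pools. They can be too narrow even for counting error, since reads copied from the same molecule are not independent and no use of molecular identifiers is given.

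**Figure D1:**
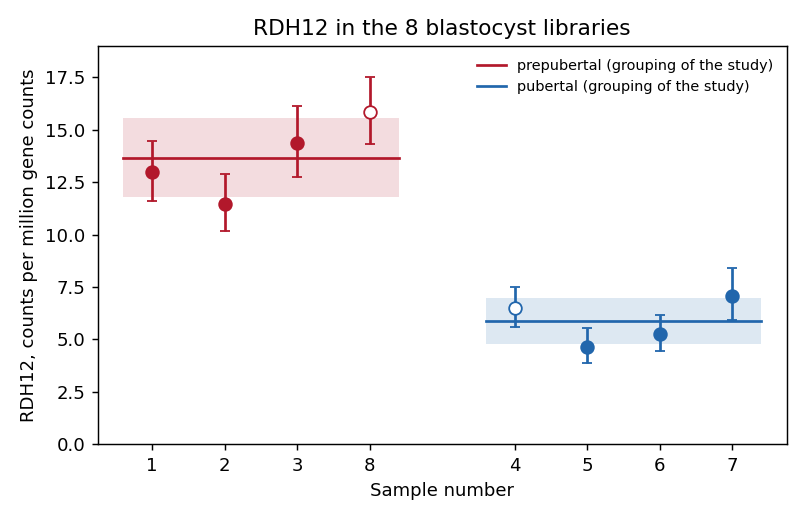
RDH12 in each library, in counts per 1000000 gene counts (vertical axis), by sample number and group; points are libraries with 95% Poisson intervals, lines are group means and shaded bands are ± 1 SD (n = 4). Open circles mark samples 4 and 8, whose labels give the other group. The prepubertal libraries lie between 11.5 and 15.9 CPM and the pubertal libraries between 4.66 and 7.08 CPM.

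Ordered by CPM, the libraries ran from sample 8 through 3, 1, 2, 7, 4 and 6 to sample 5. Neighbours within a group did not differ beyond counting error, but they stand next to each other in an order made from these same values. Little difference between them could therefore be found, and they do not show that the pools of a group were alike. Over both groups, the within-group SD of log2 CPM was 0.20, against 0.10 from counting error alone. The ratio of sample 8 to sample 3 was 1.10 (95% interval 0.946 to 1.29), that of sample 1 to sample 2 was 1.13 (0.960 to 1.33) and that of sample 4 to sample 6 was 1.23 (0.990 to 1.54). The step between the groups, from sample 2 to sample 7, was a ratio of 1.62, which is no more than a description because the gene was chosen by it. At the ends of the order within each group, sample 8 and sample 2 had intervals that did not overlap, and so did samples 7 and 5. Nothing more is read from this, because these pairs are the extremes of their groups and the intervals cover counting error only.

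RDH12 was a gene of middling read number. Between 7242 genes in sample 8 and 9717 genes in sample 5 had more reads than RDH12 in the same library. Among the 26030 genes with a read in any library, it stood at the 70.7, 68.9, 70.8 and 72.1 percentile in samples 1, 2, 3 and 8, and at the 63.5, 62.6, 62.9 and 64.9 percentile in samples 4, 5, 6 and 7. The ranks kept the groups apart as the CPM did. Among the 15513 genes that passed the low-count filter, the percentiles were lower, from 47.7 to 53.3 in the prepubertal and from 37.3 to 41.2 in the pubertal libraries. RDH12 was thus near the middle of the genes with usable read numbers in the prepubertal group. These are ranks by reads and not by transcripts, because gene lengths of the annotation were not available, and longer genes collect more reads at the same number of transcripts.

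The prepubertal group averaged 13.7 ± 1.89 CPM (SD, n = 4) and the pubertal group 5.87 ± 1.11 CPM (SD, n = 4). The prepubertal mean was 2.33 times the pubertal mean. Over all 16 pairs of a prepubertal with a pubertal library, the prepubertal library was higher, by ratios from 1.62 to 3.41. Summed over the libraries of a group, 1282 of 93935509 gene reads fell on RDH12 in the prepubertal group and 598 of 103424608 in the pubertal group, or 13.6 and 5.78 CPM. Since these are pools of whole blastocysts, fewer cells that express RDH12 and less RDH12 RNA per cell cannot be told apart.

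In edgeR's fit over all tested genes with TMM normalization, the log2 fold change of RDH12, pubertal over prepubertal, was −1.18 with a standard error of 0.17, a level 2.27 times lower in the pubertal group. Of the 15513 tested genes, 343 (2.21%) had a lower log2 fold change and 432 (2.78%) a larger one in either direction, while the median gene was at −0.02. Genes whose groups did not overlap and were lower in the pubertal group numbered 455 of 15513 (2.93%), and RDH12 was among them. Nothing is read from that place, because the same contrast chose the gene.

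Without samples 3 and 7, the prepubertal libraries averaged 13.4 ± 2.24 CPM of RDH12 and the pubertal ones 5.47 ± 0.937 CPM (SD, n = 3), a ratio of 2.45, and the log2 fold change was −1.26 (standard error 0.21). The separation was therefore as large without the libraries that stood apart. Scaling to uniquely mapped reads instead of gene reads, which counts the reads outside genes in the depth, gave 7.74, 6.64, 6.53 and 9.57 counts per 1000000 mapped reads in samples 1, 2, 3 and 8. It gave 4.14, 2.95, 3.26 and 3.69 counts per 1000000 mapped reads in samples 4, 5, 6 and 7. On this scale sample 3 was the lowest prepubertal library and sample 4 the highest pubertal one, and the lowest prepubertal value was still 1.58 times the highest pubertal value. The group means were 7.62 ± 1.41 and 3.51 ± 0.515 counts per 1000000 mapped reads (SD, n = 4).

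The grouping by the sample labels gave another picture, because the disputed libraries carry RDH12 levels of opposite groups. Sample 8, labelled pubertal, had the highest level of all 8 libraries, and sample 4, labelled prepubertal, lay among the low ones. The means by label were 11.3 ± 3.43 CPM for prepubertal and 8.22 ± 5.20 CPM for pubertal libraries (SD, n = 4), and the groups overlapped. The prepubertal library was higher in 11 of 16 pairs. The log2 fold change shrank to −0.45 with a standard error of 0.36, the same direction at a size close to its error. Using only the 6 libraries on whose group both sources concur, samples 1, 2 and 3 against 5, 6 and 7, it was −1.15. The levels of RDH12 cannot decide which grouping is right, since the gene was chosen by its difference under the first one.

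**Figure D2:**
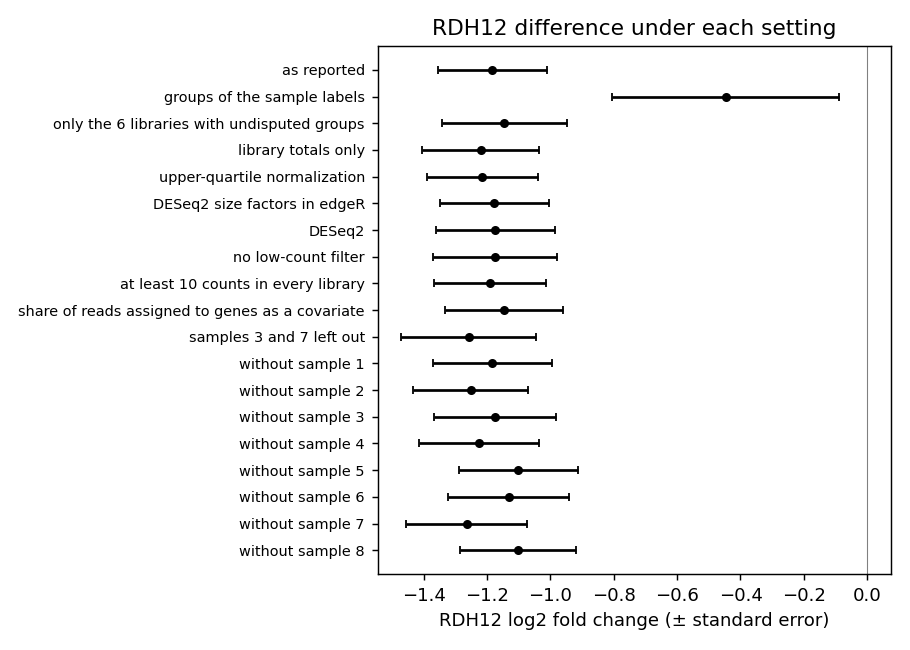
Log2 fold change of RDH12, pubertal over prepubertal (horizontal axis), with its standard error, under each way of processing the counts (vertical axis). All values lie below 0; 17 of the 18 alternatives fall between −1.26 and −1.10, and the groups of the sample labels give −0.45.

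The spread between libraries of the same group is also a description, because the study's test, which picked the gene, favours a small one. With CPM scaled by TMM and a prior count of 2, the SD of log2 CPM was 0.18 within the prepubertal and 0.21 within the pubertal group. It was 0.20 over both. The median of the same measure over tested genes was 0.26, and 35.7% of tested genes had a smaller one. On this scale RDH12 varied somewhat less between pools than the median gene, and without samples 3 and 7 its SD over both groups was also 0.20. On plain CPM its SD over both groups was 0.24, and no median over genes is given on that scale. Counting error alone would give an SD of 0.10 at these read numbers. As coefficients of variation of CPM, the spread was 13.8% in the prepubertal and 18.9% in the pubertal group. edgeR's estimate of the biological coefficient of variation, which is drawn towards the trend of genes of like abundance, was 19.05% for RDH12, with the trend itself at 24.3%. Under the labels' groups the SD over both groups rose to 0.63.

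Other genes of retinoid metabolism could be followed only in part. Of 44 genes listed for retinal reduction, retinoic acid synthesis and breakdown, storage, transport and reception, 2 were paired with an identifier in the sources used here, RDH12 and ALDH1A3. Both pairings came from the study's list of metabolic genes that differed in these same libraries, so neither is independent evidence of a direction. With a call defined as a fold above 1.2 together with a Benjamini-Hochberg adjusted p under 0.05, edgeR called 0 of the 2. It called 0 of all 15513 genes (0%), with 1681 at an unadjusted p under 0.05, and DESeq2 called 128. DESeq2's calls included 86 of 13933 genes lower in the pubertal group (0.617%), and ALDH1A3 was not among them.

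ALDH1A3, which oxidizes retinal to retinoic acid and so draws on the same substrate as RDH12, also had a lower mean in the pubertal group. It stood at 12.8, 7.78, 20.6 and 14.6 CPM in samples 1, 2, 3 and 8 and at 10.9, 4.73, 2.63 and 6.43 CPM in samples 4, 5, 6 and 7. The groups overlapped, as pubertal sample 4 lay above prepubertal sample 2, and the highest value belonged to sample 3, which stood apart. The means were 14.0 ± 5.31 and 6.17 ± 3.51 CPM (SD, n = 4), with a log2 fold change of −1.14 (standard error 0.37). Without samples 3 and 7 it was −0.92 (standard error 0.45), under the labels' groups −0.85 (standard error 0.43) and in the 6 undisputed libraries −1.52. Leaving out each library moved it between −1.55 (without sample 4) and −0.88 (without sample 6). The fold change was thus close to that of RDH12 while the spread between pools of the same group was wider. ALDH1A3 and RDH12 had a Pearson correlation of log2 CPM of 0.81 over the 8 libraries, which fall into 2 groups, and of 0.66 after each group's mean was subtracted.

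The study's pathway annotation placed RDH12 among the genes of cofactor biosynthesis, the making of vitamins, heme, nucleotide sugars and other enzyme helpers. Of the 10 genes on that list, 9 are described here, RDH12 among them, and the counts below leave out the remaining member. All were chosen by the study for differing in these libraries, so their counts are no independent evidence. Of the 9, 5 had lower and 4 had higher fitted levels with pubertal donors. Groups did not overlap for 5 of the 9, against 820 of 15513 tested genes (5.29%), and nothing is read from this because the same contrast chose the list. These genes therefore held no common direction, and among the 5 lower ones RDH12 was the only one whose groups were separate in all 8 libraries.

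The lower genes beside RDH12 were ALAS2, the first enzyme of heme synthesis in red cell precursors, ALPL, a phosphatase of the cell surface, GULO, which makes ascorbate, and GPHN, which completes the molybdenum cofactor. ALAS2 had 5.84, 3.85, 4.97 and 12.1 CPM in samples 1, 2, 3 and 8 and 4.67, 1.504, 2.14 and 2.70 CPM in samples 4 to 7. Sample 8 had by far the highest level, and the log2 fold change was −1.25 (standard error 0.40), with −0.80 without sample 8, −1.62 without sample 4, −1.17 in the 6 undisputed libraries and −0.07 under the labels' groups. GULO had 9.87, 13.7, 15.3 and 12.8 CPM in samples 1, 2, 3 and 8 and 10.3, 5.46, 6.73 and 7.29 CPM in samples 4 to 7, and overlapped between the groups only through samples 1 and 4. Its log2 fold change was −0.76 (standard error 0.20). Those of ALPL and GPHN were −0.95 (standard error 0.28) and −0.49 (standard error 0.15), and the groups overlapped for both with all 8 libraries, though not for GPHN without samples 3 and 7. Without those libraries the log2 fold changes were −1.36 for ALAS2, −0.66 for GULO, −0.70 for ALPL and −0.54 for GPHN. Under the labels' groups they were −0.58 for GULO (standard error 0.24), −0.80 for ALPL (standard error 0.32) and −0.37 for GPHN (standard error 0.18). ALAS2, at −0.07, had a standard error of 0.54 there.

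The 4 higher genes were separate in all 8 libraries but differed less in fold than RDH12. They were UGP2, which makes UDP-glucose, ALDH2, the mitochondrial aldehyde dehydrogenase, DHODH, an enzyme of pyrimidine synthesis on the inner mitochondrial membrane, and NME1, a nucleoside diphosphate kinase. NME1 had the largest fold change of these, with 14.3, 12.9, 17.7 and 16.2 CPM in samples 1, 2, 3 and 8 and 21.5, 20.3, 27.4 and 22.3 CPM in samples 4 to 7. Its log2 fold change was 0.62 (standard error 0.14). For the others it ran from 0.24 for UGP2 (standard error 0.08) over 0.31 for ALDH2 (standard error 0.09) to 0.46 for DHODH (standard error 0.13). Without samples 3 and 7 they were 0.71 for NME1, 0.22 for UGP2, 0.35 for ALDH2 and 0.55 for DHODH. Under the labels' groups they were 0.41 for NME1 (standard error 0.19), 0.13 for UGP2 (standard error 0.10), 0.17 for ALDH2 (standard error 0.12) and 0.33 for DHODH (standard error 0.16). The fold of RDH12 was larger than that of each of these 4 genes under the study's grouping. Under the labels' groups RDH12 at −0.45 and NME1 at 0.41 were of about the same size, and RDH12 had the larger standard error (0.36 against 0.19).

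Likeness to RDH12 was measured as the Pearson correlation of log2 CPM over the 8 libraries. As RDH12 splits the libraries into 2 separate sets, such values mostly rank genes by how cleanly they split the same way. They are given as a description, and say nothing of shared function or control. Among the 15512 other tested genes, 53 had a correlation above 0.9 and 59 one below −0.9. The most like RDH12 were ENSBTAG00000014319 (0.98) and ENSBTAG00000026275 (0.96), and the least like were ENSBTAG00000000562 (−0.97) and ENSBTAG00000026191 (−0.96), for which the sources give no name. ENSBTAG00000014319 had 10.1, 8.61, 9.75 and 10.4 CPM in samples 1, 2, 3 and 8 and 5.89, 4.91, 5.62 and 5.997 CPM in samples 4 to 7. It ordered the libraries as RDH12 did, except that samples 1 and 3 changed places.

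Of the 51 other named genes, all from the study's lists of genes that differed in these libraries, the most like over 8 libraries were GMDS, which starts GDP-fucose synthesis (0.94), the steroid sulfatase STS (0.92), CD38, an NAD-consuming enzyme of the cell surface (0.92), the proton-potassium pump subunit ATP12A (0.91) and the aminopeptidase ANPEP (0.90). GMDS stood at 30.2, 25.7, 33.2 and 34.2 CPM in samples 1, 2, 3 and 8 and at 25.8, 17.9, 19.5 and 22.9 CPM in samples 4 to 7. It ordered the prepubertal libraries as RDH12 did, and the pubertal ones with samples 4 and 7 exchanged, while samples 2 and 4 were level, so that the groups overlapped. STS stood at 7.93, 10.1, 14.6 and 12.1 CPM in samples 1, 2, 3 and 8 and at 6.19, 2.53, 4.38 and 6.10 CPM in samples 4 to 7, with the groups separate.

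The least like were ALDH2 (−0.93), cytochrome c, CYCS (−0.93), the copper chaperone COX17 (−0.92), and AMT (−0.92) and GCSH (−0.91), parts of the mitochondrial glycine cleavage system. CYCS stood at 83.9, 86.4, 89.2 and 81.5 CPM in samples 1, 2, 3 and 8 and at 101, 110, 112 and 93.2 CPM in samples 4 to 7. Its lowest pubertal library was sample 7, the pubertal library with the most RDH12, and its lowest library of all was sample 8, the one with the most RDH12.

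With each group's mean subtracted, so that only differences between pools of the same group remained, 12 of the 51 named genes changed the sign of their correlation with RDH12. The most like were then GMDS (0.87), the membrane-bound carbonic anhydrase CA4 (0.79), ALAS2 (0.79), ANPEP (0.72) and STS (0.71). CA4 and ALAS2 stood out through sample 8, where CA4 had 12.2 CPM against 2.88 CPM or less in every other library. Samples 5 and 6 held few reads of CA4 (0.293 and 0.249 CPM) and of ANPEP (0.440 and 0.569 CPM), so the values of these genes are uncertain. The least like were CYCS (−0.89), GCSH (−0.76), the serine-synthesis enzyme PSPH (−0.75) and the mitochondrial phosphoenolpyruvate carboxykinase PCK2 (−0.70). Among all tested genes, the within-group values reached −0.97 and 0.98. GMDS and CYCS therefore headed the named genes at either end within groups. Without samples 3 and 7, which left 3 libraries a group, their within-group values were 0.97 and −0.88, while ALAS2 stood at 0.99 and ATP12A at 0.92.

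**Figure D3:**
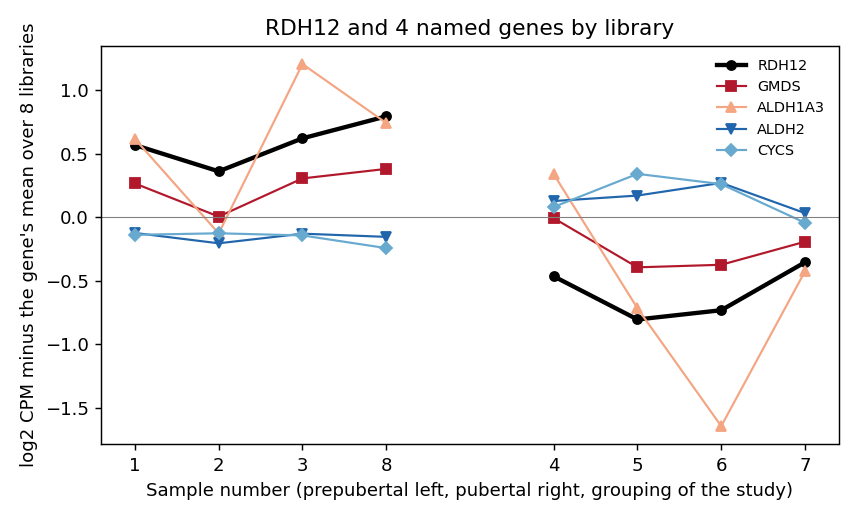
Log2 CPM of RDH12, GMDS, ALDH1A3, ALDH2 and CYCS as the difference from each gene's own mean over the 8 libraries (vertical axis), by sample, with the prepubertal group on the left; lines only join the points of a gene. GMDS lies with RDH12 above its mean in samples 1, 3 and 8 and below it in samples 5, 6 and 7, while ALDH2 and CYCS run opposite in these samples apart from CYCS in sample 7.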

How the data were processed

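For 8 single-end libraries the authors trimmed reads with Flexbar, aligned them with STAR to Bos taurus UCD1.2 and deposited HTSeq-count's counts per Ensembl gene, not normalized. The sources used here give neither tool versions nor the strand setting. Rows naming no gene stayed out of library sizes: reads outside genes (35.8% to 54.1% of uniquely mapped reads), ambiguous reads (0.448% to 0.581%) and reads at several loci (11.5% to 17.2% of mapped reads). CPM used gene counts. Fold changes came from edgeR 4.0.16 in R 4.3.3 (filterByExpr, TMM, glmQLFit, 15513 genes), with DESeq2 1.42.0 as an alternative, and both were tested on simulated data. Adjusted p values follow Benjamini and Hochberg. Correlations used log2 CPM with TMM and a prior count of 2. Poisson intervals came from scipy 1.17.1 and tables from pandas 2.3.3 in Python 3.11.15.

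RDH12 and the gene lists were chosen with earlier results of these data known. Named were RDH12, the members of the retinoid and cofactor lists that had an identifier, and the 5 genes at each end of likeness to RDH12, over 8 libraries and within groups (4 at the lower end within groups). Of the 10 members of the cofactor list, 1 is not reported here, so counts over that list cover 9 genes. Where no name was known, at most 2 identifiers each way were given. Names came only from the study's gene lists, which pair 52 of the 27607 identifiers. The reference gene table holds no Ensembl identifiers. Alternatives were the labels' groups, the 6 libraries of undisputed group, 3 other normalizations, DESeq2, 2 other low-count filters, a covariate for the percentage of uniquely mapped reads on genes, and leaving out each library. Leaving out samples 3 and 7 together, scaling to uniquely mapped reads, and the spread under the labels' groups and on plain CPM were chosen after seeing the data.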

Additional observations from a re-analysis of the deposited data

Results flagged for a closer look

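In groups of 4 libraries, a library was singled out where its gap to the nearest other library took up most of the range of its group (Dixon's criterion at the 5% level). Over 30 groups checked, 10 named genes and 5 library measures in each donor group, chance alone singles out about 5% of groups. No RDH12 value was singled out.

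Sample 3 of the prepubertal group lay far from the other 3 libraries in 3 measures. It had the fewest gene counts (20112044), the largest share of uniquely mapped reads outside genes (54.1%) and the most genes with reads (24203). In the pubertal group, sample 7 had a share of reads outside genes of 47.5%, far above the other 3. Sample 8 had the largest share of reads mapped to several loci in the prepubertal group, 17.2%. Sample 8 also had the highest RDH12 level, and the part of that share in its level was not tested.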

How the results depend on the processing

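RDH12 was lower in the pubertal group under all 18 alternatives, with log2 fold changes of −1.26 to −1.10 under 17 of them and −0.45 under the labels' groups, where its spread within groups was 0.63 against 0.20. Leaving out each library gave −1.26 (without sample 7) to −1.10 (without sample 5). Against 0 genes called by edgeR (1681 at an unadjusted p under 0.05), 11 were called in the 6 undisputed libraries, 2 with DESeq2's size factors, 128 by DESeq2 and 25 without a low-count filter. Leaving out each library gave 0 to 8 calls, with 5 when sample 1, 8 when sample 4, 3 when sample 7 and 4 when sample 8 was absent. Of the retinoid genes, DESeq2 called 1 and edgeR without the filter 1, against 0. Both calls were RDH12, whose choice by this contrast leaves them no weight. Genes whose groups did not overlap numbered 820, against 569 under the labels' groups and 844 on TMM-scaled CPM. They numbered 1121 to 2034 with a library left out (2034 without sample 1, 1860 without 4, 1446 without 7, 1352 without 8). Without samples 3 and 7 they numbered 1830. Fewer libraries separate more easily. The median percentile of RDH12 was 66.9 among genes with reads and 44.4 among filtered genes, a smaller set of more abundant genes. The cause of the other changes was not tested. No paired analysis was possible because the groups share no replicate numbers. Counting error, with reads taken as independent, was 5.04% to 8.87% of the RDH12 level per library.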
